A study of Mus musculus with 4 samples.

Results

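Adipokines are the proteins that fat cells secrete, and the genes described here encode 9 of them: Adipoq (adiponectin), Lep (leptin), Retn (resistin), Cfd (adipsin, complement factor D), Rbp4 (retinol binding protein), Nampt (visfatin), Rarres2 (chemerin), Apln (apelin) and Angptl4 (angiopoietin-like 4). Chromatin accessibility around them was measured by ATAC-seq, in which a transposase cuts and tags DNA that is not covered by nucleosomes. For each gene, every peak whose summit lay within 50 kb of an annotated start site (mouse genome mm9) was collected from 4 peak lists. Peaks of different lists that overlapped by at least 1 bp were joined into a site, which gave 125 sites of the 100904 sites in the whole data set. A site is called open in a library that had a peak there.

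The cells were im-scWAT cells, immortalized preadipocytes from mouse subcutaneous white fat. They were either wild type (Jmjd1a +/+, written WT) or Jmjd1a HY/HY (written HY), in which a knocked-in amino acid substitution removes the demethylase activity of Jmjd1a towards histone H3 lysine 9 while the protein itself is kept. Both genotypes were collected at day 0 (D0), before differentiation, and at day 8 (D8), after induction towards beige adipocytes with indomethacin, dexamethasone, IBMX, rosiglitazone, insulin and T3, followed by insulin, T3 and rosiglitazone. Each of the 4 groups was 1 library, so every comparison below sets 1 library against another, no test between conditions was possible, and the 95% intervals given (exact) cover counting error only. WT and HY cells are separate cultures, so culture and genotype cannot be told apart. The WT lists held 1 chromosome Y peak each, and the HY lists 7 at D0 and 6 at D8.

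During adipogenesis, the nuclear receptor Pparg and the C/EBP factors switch on the genes of the mature fat cell, largely from enhancers that lie at a distance from the genes they serve. Adiponectin, leptin, resistin and adipsin are classical products of mature fat cells. Adiponectin improves insulin sensitivity, leptin reports fat stores to the brain, adipsin activates the alternative complement pathway, and Angptl4 inhibits lipoprotein lipase. Nampt, Rarres2, Rbp4 and Apln are also made in many other tissues, Nampt as an enzyme of NAD synthesis.

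The lists held 71523 peaks (WT D0), 41228 (WT D8), 77994 (HY D0) and 48964 (HY D8). Height is given as the summit pileup, the number of overlapping sequence tags at the top of a peak, which was solved from the deposited fold enrichment and p-value together with the local background, the pileup that the peak caller expected from the surrounding sequence. The lowest background in a list served as its genome-wide background and as a measure of depth. It was 0.659 tags at D0 and 0.531 at D8 in WT, and 0.708 and 0.494 in HY, so the D8 libraries were the shallower, at 0.806 of the D0 depth in WT and 0.698 in HY. At that background a peak needed 5 tags, or 4 in HY D8, to be listed. A promoter peak, here and below, is one with its summit from 1000 bp upstream to 100 bp downstream of a start site. The promoters of all 6 adipocyte markers examined (Pparg, Fabp4, Plin1, Cidec, Lipe, Cebpa) had a peak at D8 in both genotypes, and 3 had one at D0. Of 6 preadipocyte markers, 6 had a promoter peak in WT D0, 4 in HY D0 and 1 in each D8 library. The Pdgfra promoter held 50 tags in WT D0 and no peak in HY D0, and Dlk1 likewise lacked a promoter peak in HY D0. A peak with its summit outside that window was not counted, so a missing promoter peak does not show a closed promoter. No promoter of 4 macrophage markers or 3 muscle markers had a peak in any library, while 3 of 4 endothelial markers had one in WT D0, 2 in HY D0, 0 in WT D8 and 1 in HY D8.

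Sites that had a peak at D8 and none at D0 in both genotypes, called opened sites here, lay at Adipoq, Lep, Retn, Cfd, Rbp4, Nampt, Apln and Angptl4. To show what such sites are, the first sequence gives the 200 bp upstream of the Adipoq start site (chr16:23146409-23146608), which the opened promoter peak covered. The others give the strongest D8 summit and 100 bp on either side of it for the opened sites at Adipoq (chr16:23144496-23144696), Lep (chr6:28981928-28982128), Retn (chr8:3646973-3647173), Cfd (chr10:79347171-79347371) and Angptl4 (chr17:33892609-33892809). They were read from the plus strand of mm9, and capitals mark matches to the motifs described further on, which 2 of the 6 sequences hold.
Adipoq promoter: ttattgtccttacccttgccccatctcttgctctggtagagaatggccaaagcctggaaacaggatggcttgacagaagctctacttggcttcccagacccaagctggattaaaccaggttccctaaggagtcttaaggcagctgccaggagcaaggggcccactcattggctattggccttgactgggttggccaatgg
Adipoq upstream site: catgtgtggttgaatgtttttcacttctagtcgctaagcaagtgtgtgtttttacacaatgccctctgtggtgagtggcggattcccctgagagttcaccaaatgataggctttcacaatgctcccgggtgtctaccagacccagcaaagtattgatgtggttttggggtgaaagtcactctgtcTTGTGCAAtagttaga
Lep upstream site: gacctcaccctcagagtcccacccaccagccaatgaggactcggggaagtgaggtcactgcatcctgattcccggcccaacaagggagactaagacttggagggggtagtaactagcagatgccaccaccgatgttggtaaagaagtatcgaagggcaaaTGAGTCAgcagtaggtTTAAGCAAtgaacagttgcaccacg
Retn upstream site: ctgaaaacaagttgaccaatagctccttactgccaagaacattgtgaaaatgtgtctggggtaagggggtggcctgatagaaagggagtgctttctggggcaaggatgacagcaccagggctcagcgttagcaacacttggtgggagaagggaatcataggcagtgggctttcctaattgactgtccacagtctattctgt
Cfd upstream site: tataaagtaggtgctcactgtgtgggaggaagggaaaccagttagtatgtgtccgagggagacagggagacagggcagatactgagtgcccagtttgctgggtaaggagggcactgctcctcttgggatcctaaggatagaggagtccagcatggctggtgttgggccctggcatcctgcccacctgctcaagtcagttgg
Angptl4 downstream site: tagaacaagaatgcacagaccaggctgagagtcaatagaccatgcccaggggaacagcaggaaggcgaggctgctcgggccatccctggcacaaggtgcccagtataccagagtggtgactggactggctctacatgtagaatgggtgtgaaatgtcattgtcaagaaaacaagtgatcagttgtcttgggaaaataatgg

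**Figure D1:**
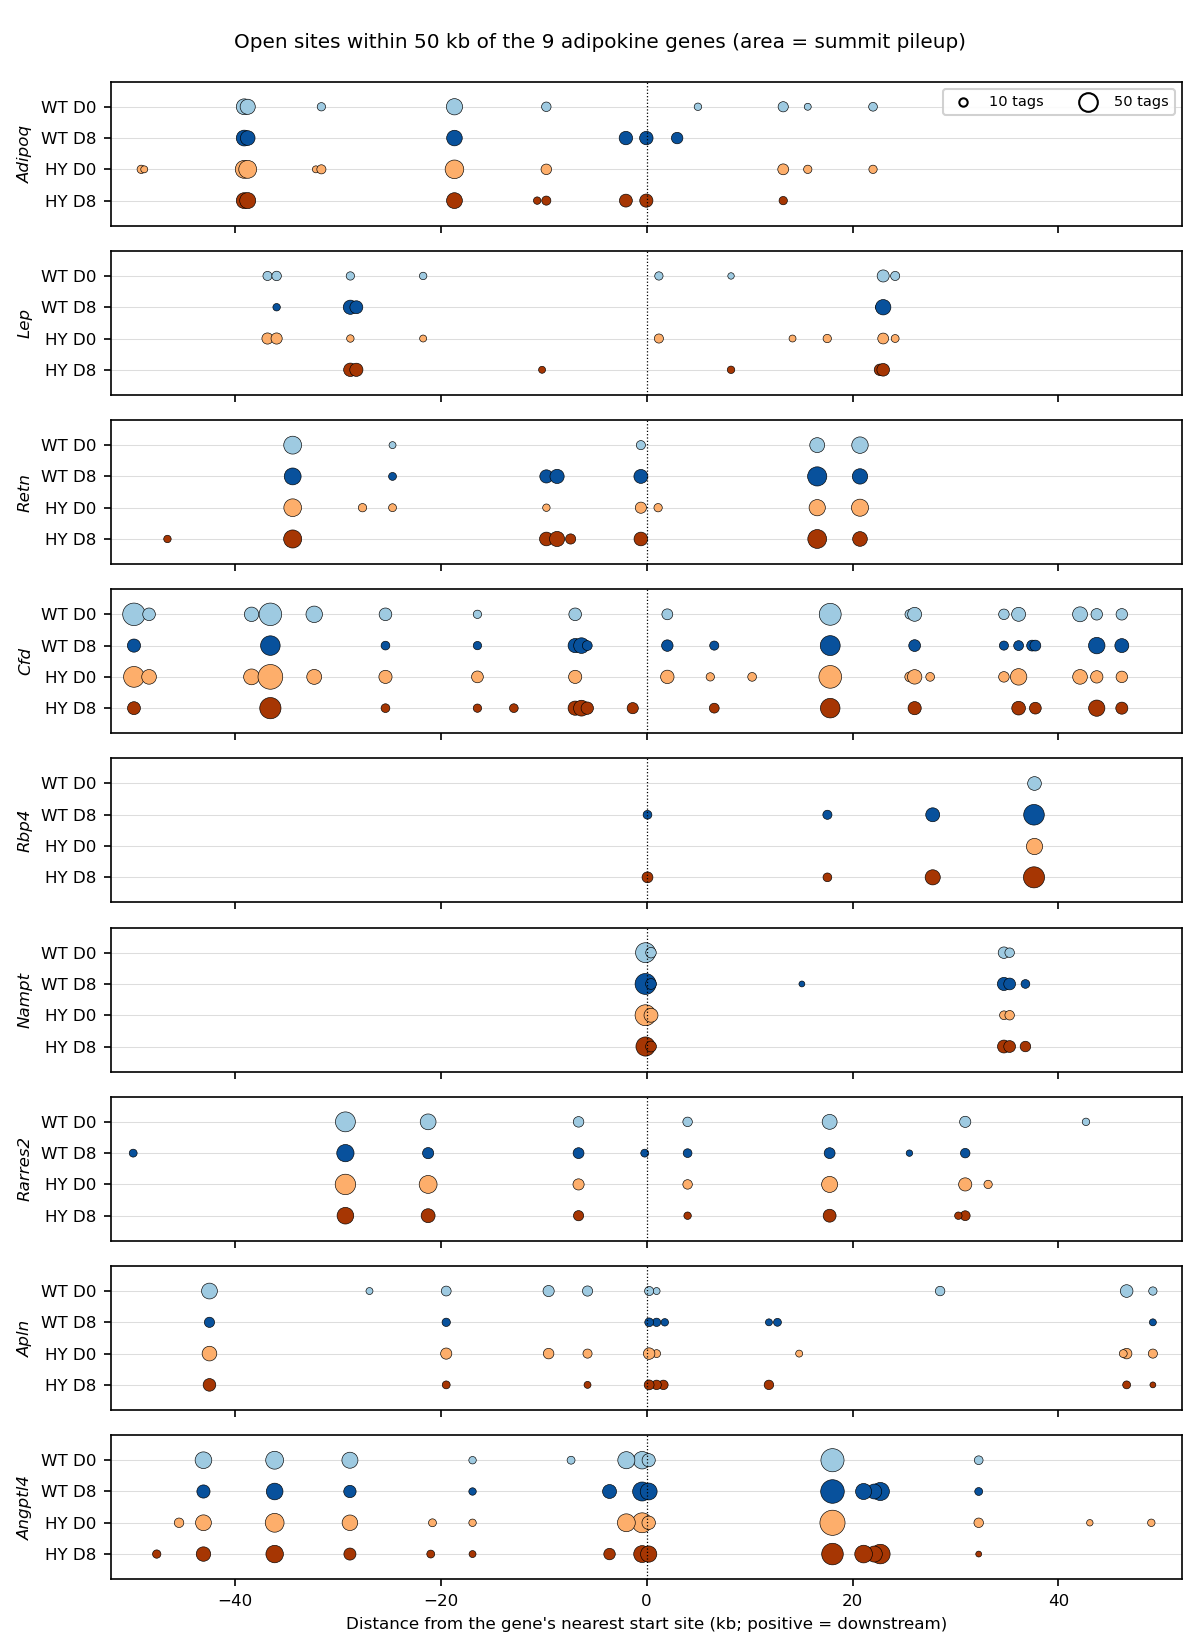
Open sites around the 9 genes. The x axis is the distance of the site's strongest summit from the nearest start site of the gene in kb (positive values downstream), each row is 1 library, and the area of a point is the summit pileup in tags. At Adipoq the points at and just before the start site are in the D8 rows only, at Rbp4 the D0 rows hold a single point at 37.6 kb, and at Rarres2 6 of the 12 sites recur in all 4 rows.

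A larger share of the adipokine sites opened, and a smaller share closed, than of all sites. In WT, 98 adipokine sites were open on either day, of which 27 (27.6%, interval 19.0% to 37.5%) were open only at D8. The share over all sites was 12.1%. In HY, 29 of 112 (25.9%, 18.1% to 35.0%) were open only at D8, against 13.7% over all sites. Sites open only at D0 made up 24 of 98 (24.5%, 16.4% to 34.2%) in WT, against 52.7% over all sites, and 35 of 112 (31.2%, 22.8% to 40.7%) in HY, against 49.3%. The intervals excluded the all-site shares in both genotypes and in both directions, although neighbouring sites of a gene are not independent of each other. Taking the same number of strongest peaks from every list raised the D8-only share to 44.7% in WT and 43.4% in HY, and lowered the D0-only share to 11.8% and 10.8%. Over all sites the same lists gave D8-only shares of 25.5% in WT and 25.5% in HY, and D0-only shares of 31.7% and 30.2%.

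In both genotypes at once, 18 of the 125 sites (14.4%, 8.76% to 21.8%) were opened, against 6.0% of all sites. Closed sites, open at D0 and not at D8 in both genotypes, numbered 14 (11.2%, 6.26% to 18.1%), against 24.6% of all sites. A further 43 sites (34.4%, 26.1% to 43.4%) were open in all 4 libraries, against 24.2% of all sites. Sites with a peak in 1 library only numbered 40 (32.0%, 23.9% to 40.9%), against 33.0% of all sites, and 10 had other combinations. An opened site was present at 8 of the 9 genes, while 27.9% of 22380 protein-coding genes had one within 50 kb. The adipokine genes also had more sites of any kind, with a mean of 13.9 per gene against 8.03 over the protein-coding genes. A closed site was present at 5 of the 9, against 65.7% of protein-coding genes. The number of opened sites was 4 at Cfd and Angptl4, 3 at Rbp4, 2 at Adipoq and Lep, 1 at Retn, Nampt and Apln, and 0 at Rarres2. Genes with 4 or more opened sites numbered 470 in the genome. Cfd lies in a gene-dense window with 27 sites, and Rbp4 had only 4 sites in all, of which 3 opened.

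**Figure D2:**
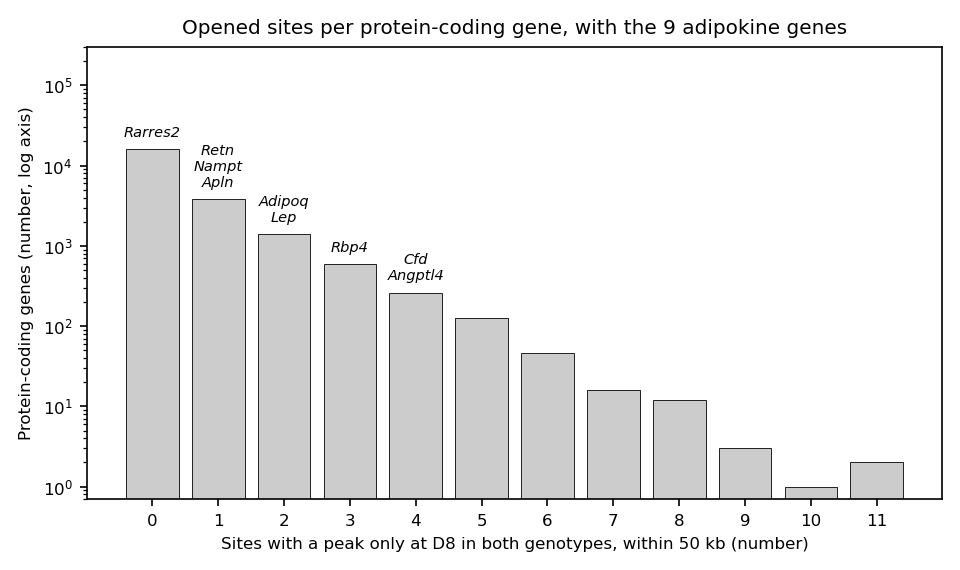
Opened sites per protein-coding gene. The x axis is the number of sites within 50 kb with a peak only at D8 in both genotypes, and the y axis, on a log scale, the number of genes with that many. Of 22380 genes, 16139 had 0, as did Rarres2, while Cfd and Angptl4 had 4.

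**Figure D3:**
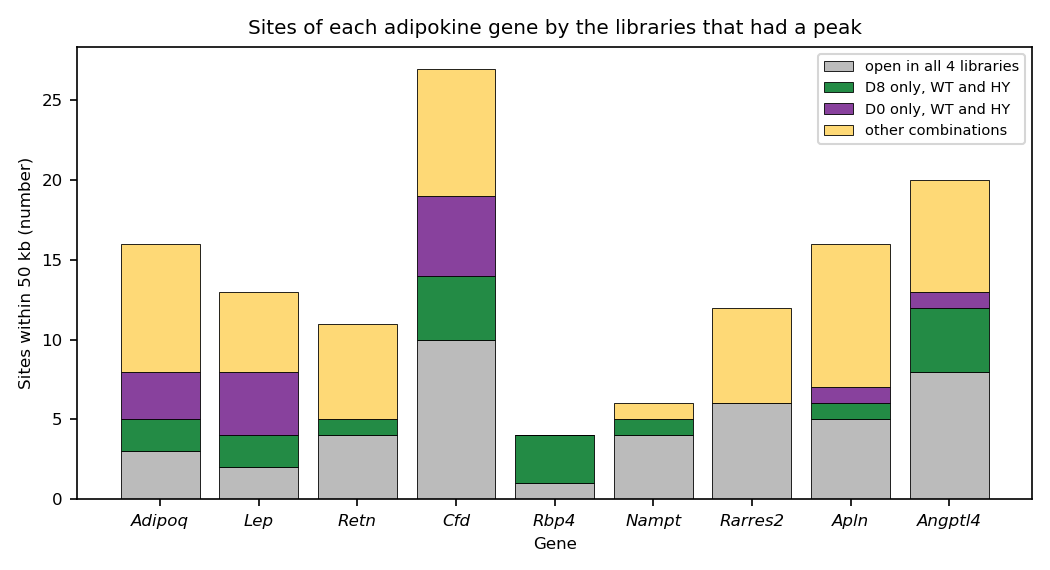
The 125 sites by gene and by the libraries that had a peak. The bars count the sites open in all 4 libraries (grey), open only at D8 in both genotypes (green), open only at D0 in both (purple) and in other combinations (yellow). Cfd has 27 sites, Rbp4 has 4, and Rarres2 has neither green nor purple.

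Most of the 18 opened sites lay away from the promoters, as did most of the 125 adipokine sites, of which 6 were promoter sites. Of the opened sites, 2 lay at a promoter, those of Adipoq and Rbp4, and 14 lay more than 5 kb from the nearest start site of the gene. Most of the 125 adipokine sites likewise lay beyond 5 kb, so the opened sites are not shown to be more distal than the rest. By the annotation of the summit base, 10 opened sites were intergenic (55.6%) and 8 intronic (44.4%, 21.5% to 69.2%). Over all 125 adipokine sites these shares were 54.4% and 24.8%. The nearest protein-coding start site was that of the adipokine gene itself at 8 of the 18, so at the others a neighbouring gene is at least as near. Their D8 pileups ran from 7 to 47 tags in WT (median 25) and from 11 to 55 in HY (median 23). Where no peak was called at D0, the background of the nearest D0 peak puts the pileup needed for a call at 5 to 15 tags in WT and 5 to 18 in HY. After scaling for depth, the D8 pileup was at least 2-fold above that level at 15 sites in WT and 16 in HY. The lowest values of this ratio were 1.45 at the Apln site in WT and 1.51 at the Angptl4 site 3.6 kb upstream in HY. The same check was made in reverse for the 14 closed sites. Their depth-scaled D0 pileup was at least 2-fold above the level needed at D8 at 3 sites in each genotype. It was below that level at 4 sites in WT and 3 in HY, so the closed calls are weaker contrasts than the opened ones.

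Adipoq (chromosome 16, plus strand) encodes the fat-cell hormone that is used as a marker of the mature adipocyte. Its promoter site (chr16:23146388-23146705, summit 27 bp upstream of the nearest start site) had no peak at D0 and held 26 tags at D8 in WT and 25 in HY. The intergenic site 2.0 kb upstream (chr16:23144484-23144814) held 26 tags at D8 in WT and 24 in HY, again with no peak at D0 in either genotype. The heights in the genotypes were close, with wide intervals, at HY over WT ratios after depth scaling of 1.03 (0.572 to 1.86) and 0.992 (0.545 to 1.80). The nearest D0 peaks, 5 to 10 kb away, had backgrounds at which 5 tags in WT and 6 in HY would have been called. An intronic site 3.0 kb downstream was open in WT D8 alone, with 19 tags. In HY D8 a peak there would have needed 13 tags at the background of the nearest peak.

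No further site opened in both genotypes in the Adipoq window. Of its 16 sites, 3 closed in both genotypes, and the site of these with the highest significance, 22.0 kb downstream (chr16:23168425-23168916), held 11 tags at D0 in WT and 10 in HY. At the background of the nearest D8 peak, 12 tags would have been needed in WT and 6 in HY. The missing peak in WT D8 therefore does not show a lower height there. The 3 sites open in all 4 libraries lay at or next to the genes Eif4a2 and Rfc4. At Eif4a2, a translation factor gene expressed in most cells, the site 39.1 kb upstream of Adipoq (in a UTR of Eif4a2) held 36 tags at D0 and 36 at D8 in WT cells, and 46 and 36 in HY cells. After depth scaling, D8 over D0 came to 1.24 (0.76 to 2.03) for WT and 1.12 (0.704 to 1.77) for HY, so its height was not shown to differ between the days.

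Lep (chromosome 6, plus strand) had no site with a summit from 1000 bp upstream to 100 bp downstream of a start site in any library. Its opened sites were distal, in a pair 28 kb upstream and another pair 23 kb downstream. The site 28.2 kb upstream (chr6:28981873-28982208) had no peak at D0 and held 24 tags at D8 in WT and 25 in HY. Its neighbour 28.8 kb upstream (chr6:28981232-28981592) was open in all 4 libraries, with 10 tags at D0 and 29 at D8 in WT cells, and 8 and 26 in HY cells. This was a depth-scaled increase of 3.60-fold (1.71 to 8.28) in WT and 4.65-fold (2.05 to 11.9) in HY. Among the sites open in all 4 libraries, no larger mean ratio was found at any of the 9 genes.

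Downstream of Lep, the site at 22.7 kb (chr6:29038049-29038225) opened with 11 tags at D8 in WT and 19 in HY. The adjacent site at 23.0 kb held 21 tags at D0 and 34 at D8 in WT cells, and 17 and 23 in HY cells, a ratio of 2.01 in WT and 1.94 in HY. Inside the gene, the site nearer the start had the opposite direction, while the other differed between the genotypes and is described at the end. The intronic site 1.2 kb downstream of the second start site (chr6:29016537-29016796) held 10 tags (WT) and 12 tags (HY) at D0 and had no peak in either D8 library. It was 1 of 4 closed sites at Lep. At D8 the nearest peak lay 7.0 kb away in HY and further in WT, and its background would have required 5 tags in HY and 7 in WT.

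Retn (chromosome 8, plus strand), the gene of a cysteine-rich hormone that rodents make in fat cells, had a promoter site open on both days. The pileup at the strongest summit of that site was higher at D8. The promoter site (chr8:3654834-3655963, strongest summit 557 bp upstream) held 12 tags at D0 and 28 at D8 in WT cells, and 18 and 27 in HY cells, which gave depth-scaled ratios of 2.90 (1.43 to 6.25) and 2.15 (1.14 to 4.14). The strongest summit was at 3655067 in both D0 libraries, 3655213 in WT D8 and 3655663 in HY D8. The ratios thus compare different positions within the site. The fold enrichment there was 7.15 at D0 and 8.9 at D8 in WT, and 7.99 and 7.85 in HY. A cluster of D8 peaks lay upstream, next to the gene Stxbp2. The site 8.7 kb upstream (chr8:3646726-3647318) opened with 29 tags at D8 in WT and 33 in HY. The site 9.7 kb upstream held 25 tags at D8 in WT and 27 in HY, and a weak D0 peak of 8 tags in HY only, so it counted as opened in WT and as 4.83-fold higher in HY. The site 16.6 kb downstream, nearest to Trappc5, held 32 tags at D0 and 53 at D8 in WT cells, and 38 and 51 in HY cells. No site of Retn closed in both genotypes.

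Rbp4 (chromosome 19, minus strand), which encodes the carrier of retinol in blood, had a single site open at D0. That site, 37.6 kb downstream (chr19:38161440-38162125), lies nearest to O3far1, a gene for a receptor of long-chain fatty acids. It held 27 tags at D0 and 61 at D8 in WT cells, and 38 and 64 in HY cells. These are depth-scaled increases of 2.80-fold (1.76 to 4.59) in WT and 2.41-fold (1.59 to 3.70) in HY, and 61 and 64 tags were the highest D8 pileups at Rbp4. At D0 the strongest summits were at 38161891 (WT) and 38161836 (HY), and at D8 at 38161667 and 38161676. These ratios, too, compare different positions within the site. The site 27.8 kb downstream (chr19:38171326-38172006), again nearest to O3far1, opened with 28 tags at D8 in WT and 33 in HY. The site 17.6 kb downstream opened with 12 and 11 tags. The promoter site (chr19:38198998-38199722), which lies over the internal start site with its summit 85 bp downstream, opened with 11 tags at D8 in WT and 17 in HY. All D8 peaks of Rbp4 were thus present in both genotypes, and apart from the promoter they lay nearer to O3far1 than to Rbp4.

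Cfd (chromosome 10, plus strand) encodes the serine protease adipsin. No summit lay from 1000 bp upstream to 100 bp downstream of its start site, and its nearest opened sites lay 6.3 and 5.8 kb upstream, by the neutrophil protease genes Elane and Prtn3. The first (chr10:79347007-79347565) held 35 tags at D8 in WT and 36 in HY, and the other 14 and 22 tags. Next to them, the site 6.9 kb upstream was open in all libraries with 23 tags at D0 and 29 at D8 in WT cells, and 25 and 29 in HY cells. The region from there to the start site also held a peak 1.3 kb upstream in HY D8 alone, with 18 tags. In WT D8 a peak at that position would have needed 10 tags. The site 2.0 kb downstream had the opposite pattern at D8. It held 17 tags at D0 and 19 at D8 in WT cells, and 26 in HY D0. In HY D8 it had no peak, where 11 tags would have been needed.

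Further from Cfd the window holds many other genes, and sites moved in both directions within a few kb. In an intron of Arid3a, the site 42.1 kb downstream (chr10:79395538-79395841) closed from 32 tags at D0 in WT and 31 in HY. The site 43.7 kb downstream, in the same gene, held 19 tags at D0 and 39 at D8 in WT cells, and 22 and 38 in HY cells, a rise of 2.55-fold (1.44 to 4.67) in WT and 2.47-fold (1.43 to 4.39) in HY. At the other edge of the window, next to Ptbp1, the site 49.8 kb upstream held 73 tags at D0 and 25 at D8 in WT cells, and 62 and 24 in HY cells. This was the single adipokine site at least 2-fold lower at D8 in WT, at a ratio of 0.425, and it stood at 0.554 in HY. Its strongest summit was at 79303806 in both D0 libraries, 79304010 in WT D8 and 79303620 in HY D8, so different positions are compared.

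Rarres2 (chromosome 6, minus strand), the gene of the chemoattractant chemerin, had neither an opened nor a closed site by the calls in both genotypes. Its promoter site (chr6:48522730-48522936, summit 184 bp upstream) had a peak of 9 tags in WT D8 alone. A peak in HY D8 would have needed 5 tags at the background of the nearest peak, 4.1 kb away. Sites open in all 4 libraries made up 6 of its 12. The one of these with the largest mean ratio, 6.6 kb upstream, held 16 tags at D0 and 17 at D8 in WT cells, and 18 and 15 in HY cells, which are ratios of 1.32 (0.627 to 2.79) and 1.19 (0.56 to 2.51).

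Nampt (chromosome 12, plus strand) had an open promoter throughout. The promoter site (chr12:33504637-33505412, summit 105 bp upstream) held 57 tags at D0 and 63 at D8 in WT cells, and 63 and 53 in HY cells, with depth-scaled ratios of 1.37 (0.943 to 2.00) and 1.2 (0.82 to 1.76). The opened site of Nampt lay in a cluster 35 kb downstream of the start site. There the site at 34.7 kb (chr12:33539780-33540087) held 19 tags at D0 and 25 at D8 in WT cells, and 11 and 24 in HY cells. The WT ratio of 1.63 (0.864 to 3.14) and the HY ratio of 3.12 (1.47 to 7.07) have intervals that overlap. The WT interval includes 1, as do both promoter intervals. The site at 36.8 kb (chr12:33541918-33542217) opened with 11 tags at D8 in WT and 16 in HY. No site of Nampt closed.

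Angptl4 (chromosome 17, minus strand) had the highest pileups among the opened sites. In an intron of the neighbouring gene Rab11b, 3 opened sites lay side by side from 21.1 to 22.7 kb downstream of Angptl4. The strongest (chr17:33892475-33892998) held 47 tags at D8 in WT and 55 in HY, and the others 32 and 37 tags in WT D8 and 37 and 45 in HY D8. A D0 peak there would have needed 15 tags in WT and 16 in HY at the background of the nearest D0 peak. The fourth opened site, 3.6 kb upstream, held 28 tags at D8 in WT and 19 in HY. There a D0 peak would have needed 15 and 18 tags, so the absence of a peak at D0 is a weaker contrast than at the other Angptl4 sites.

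At the gene itself, the site over the main start sites of Angptl4 (chr17:33918085-33918851) held 25 tags at D0 and 41 at D8 in WT cells, and 26 and 38 in HY cells, a rise of 2.04-fold (1.21 to 3.49) in WT and 2.09-fold (1.24 to 3.59) in HY. The promoter site of an internal start site (chr17:33916194-33917084, summit 433 bp upstream of it) held 44, 52, 57 and 41 tags in the same order, with ratios of 1.47 (0.963 to 2.24) and 1.03 (0.672 to 1.57). Between these and the upstream opened site, the site 2.0 kb upstream (chr17:33920231-33920793) closed from 42 tags at D0 in WT and 46 in HY. In the D8 libraries a peak at that position would have needed 15 tags in WT and 14 in HY. An opened, a closed and a rising site therefore lay within 4 kb of each other in both genotypes.

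Apln (chromosome X, minus strand), which encodes a ligand of a receptor on endothelial cells, was the gene with the lowest opened site in WT. The site 11.9 kb downstream (chrX:45376018-45376315) held 7 tags at D8 in WT and 13 in HY. The site over its start site (chrX:45387401-45388319, strongest summit 245 bp downstream) had no summit in the promoter window but was open in all libraries, with 12 tags at D0 and 11 at D8 in WT cells, and 19 and 14 in HY cells. In an intron, 969 bp downstream, the site with the largest mean ratio at Apln held 7, 10, 9 and 13 tags in the same order, with ratios of 1.77 (0.609 to 5.49) and 2.07 (0.818 to 5.48). The site 9.5 kb upstream (chrX:45397252-45397798) closed from 18 tags at D0 in WT and 16 in HY. These pileups are low, and the intervals of the intronic site include 1.

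Across the sites open on both days, the adipokine sites were more often at least 2-fold higher at D8 than all sites were. In WT, 7 of 47 such sites were at least 2-fold higher at D8 after depth scaling, against 4.79% of all sites, and 1 was at least 2-fold lower, against 14.7%. In HY, 9 of 48 were at least 2-fold higher, against 5.28%, and 0 at least 2-fold lower, against 17.2%. The median D8 over D0 ratio was 1.14 in WT and 1.06 in HY over the adipokine sites and 0.896 and 0.884 over all sites. Of the 43 sites open in all 4 libraries, 25 had a ratio above 1 in both genotypes, 10 below 1 in both, and 8 differed in direction. The intervals lay above 1 in both genotypes at 6 of them, namely Lep at 28.8 kb upstream, the Retn promoter and the Retn site at 16.6 kb, Cfd at 43.7 kb, Rbp4 at 37.6 kb and the Angptl4 start site. The interval lay below 1 in both genotypes at the Cfd site next to Ptbp1 only.

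**Figure D4:**
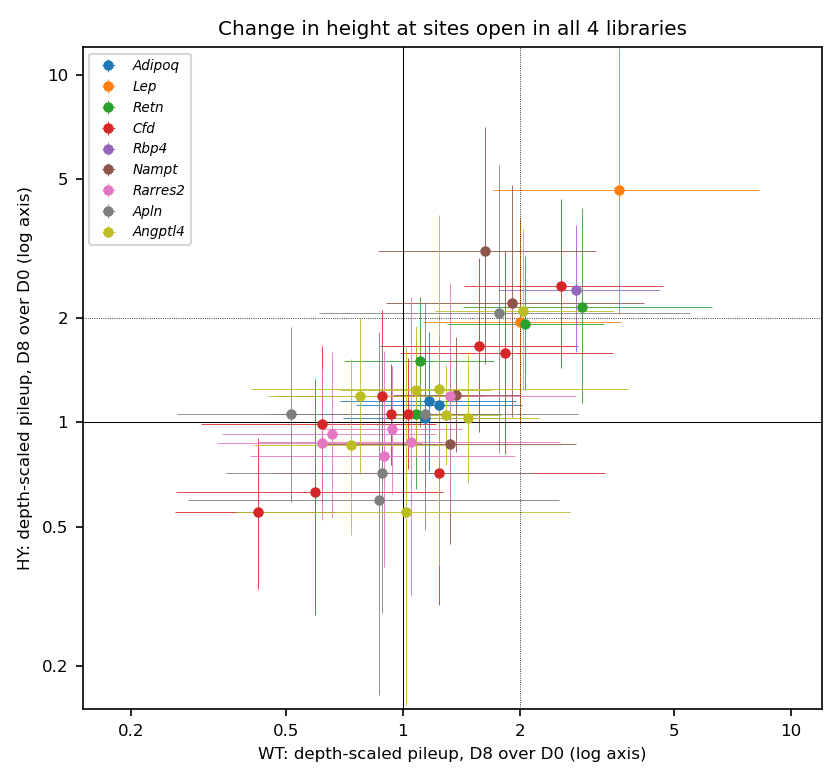
Change in height at the 43 sites open in all 4 libraries. Each point is a site coloured by gene, placed by its depth-scaled D8 over D0 pileup ratio in WT (x axis) and HY (y axis), both on log axes, with 95% counting intervals. The dotted lines mark a 2-fold rise, and the Lep site at 3.60 and 4.65 stands furthest to the upper right.

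The increase depended on which measure of height was used. By the deposited fold enrichment, which divides the pileup by the local background, 0 of the 47 sites in WT and 0 of the 48 in HY were at least 2-fold higher at D8, against 1.24% and 1.33% over all sites. By pileup without depth scaling the numbers were 4 and 3, against 2.7% and 2.2% over all sites. The local background was itself higher at D8 at most of these sites. At the adipokine sites open on both days, the local background over the genome-wide one was higher at D8 at 33 of 47 sites in WT (median ratio 1.24) and at 34 of 48 in HY (1.14), while the median over all sites was 0.902 and 0.886. Among single genes the median ratio over the shared sites was 1.34 in WT and 1.14 in HY at Adipoq, 1.70 and 1.52 at Retn, and 1.94 and 2.40 at Nampt. It was 1.22 at Angptl4 in WT and 1.04 and 1.11 at Cfd, and was below 1 in both genotypes at Rarres2 (0.967 and 0.929) and Apln (0.960 and 0.749). The local background includes the tags of a site and of its neighbours, and its part in the fold enrichment result was not tested.

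**Figure D5:**
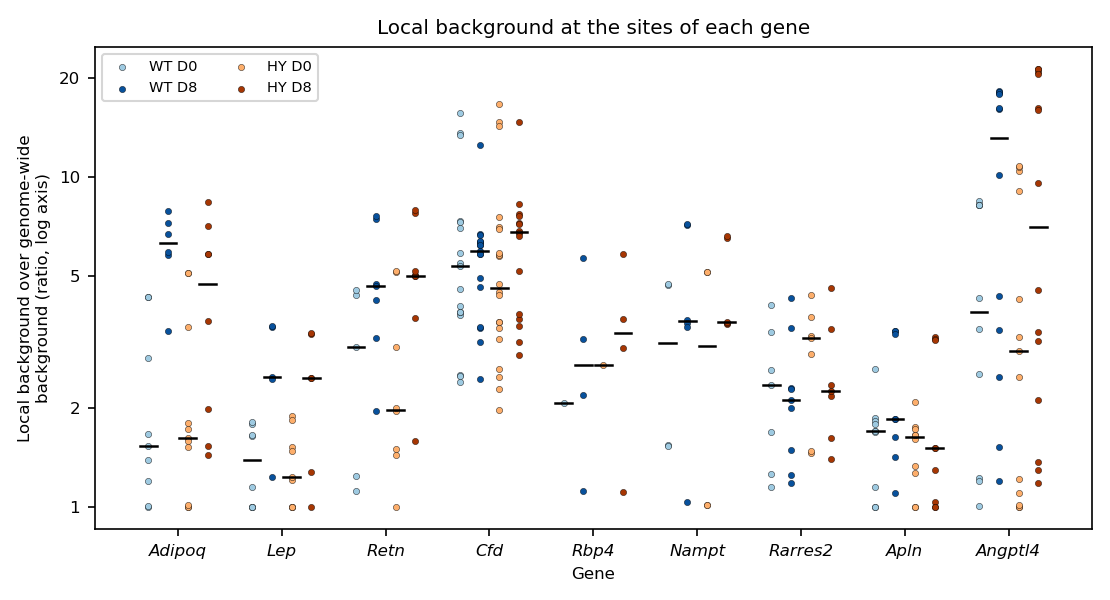
Local background at the sites of each gene. The y axis, on a log scale, is the local background at a site divided by the genome-wide background of its library, points are sites and black lines medians over sites. The highest point of Angptl4 goes from 8.46 at D0 to 18.2 at D8 in WT cells and that of Cfd from 15.7 to 12.5, and the points of 2 days need not be the same sites.

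Between the genotypes, most adipokine sites were open in both on each day. At D0, 65 of 89 sites were open in both genotypes, 18 only in HY (20.2%, 12.4% to 30.1%) and 6 only in WT (6.74%, 2.51% to 14.1%). The shares over all sites were 21.7% and 12.1%. At D8, 15 of 89 were open only in HY (16.9%, 9.75% to 26.3%), against 26.3% of all sites, and 12 only in WT (13.5%, 7.17% to 22.4%), against 9.53%. The HY lists were the longer ones on both days, and the adipokine intervals included the all-site shares, except that for HY only at D8, which ended at it. Of the 27 sites that opened in WT, 19 (70.4%, 49.8% to 86.2%) were open in HY D8, against 73.2% over all sites. Of the 29 that opened in HY, 18 (62.1%, 42.3% to 79.3%) were open in WT D8, against 55.5%. Both intervals include the all-site share.

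Sites seen in a single library were low. The 17 sites open only in HY D0 held 6 to 13 tags, the 10 open only in HY D8 7 to 18, the 8 open only in WT D8 5 to 19 and the 5 open only in WT D0 7 to 13. In contrast, the sites open in all 4 libraries had medians of 25 to 30 tags. The 10 sites with other combinations were not all low. The Apln site 46.6 kb downstream held 23 tags in WT D0, 16 in HY D0 and 9 in HY D8. It had no peak in WT D8, where 5 tags would have been needed. Where both genotypes had a peak, the interval of the HY over WT ratio excluded 1 at 0 of 65 sites at D0 and at 1 of 62 at D8, against 2.43% and 1.03% of all such sites. The 24 sites at D0 and 27 at D8 with a peak in 1 genotype only have no such ratio and were not assessed for counting error. At least 2-fold differences numbered 0 at D0 and 1 at D8, against 3.64% and 2.19% of all sites. The exception was the Cfd site 36.1 kb downstream, next to Arid3a, with 28 tags at D0 and 14 at D8 in WT cells, and 39 and 27 in HY cells and a ratio of 2.07 (1.05 to 4.27) at D8. At the 18 opened sites the ratio ran from 0.729 to 2.00 with a median of 1.26, was above 1 at 15, and had an interval that included 1 at all 18. Over all sites open in both genotypes at D8 the ratio was above 1 at 21681 of 32126, with a median of 1.11. The interval of the Adipoq promoter ratio reaches from 0.572 to 1.86, so these libraries do not show the genotypes to be alike there either.

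Motif matches were looked for within 100 bp of the strongest summit, on both strands. The letters were AGGNCANAGGNCA for the Pparg and Rxr direct repeat (DR1), TTGCNNAA for C/EBP, TCCCNNGGGA for EBF, TGGCNNNNNGCCA for NFI, TGANTCA for AP-1 and ACANNNTGT for the glucocorticoid receptor. A C/EBP match lay at 3 of the 18 opened adipokine sites (16.7%, 3.58% to 41.4%), namely the Adipoq site 2.0 kb upstream, the Lep site 28.2 kb upstream and the Cfd site 37.8 kb downstream. The share was 27.0% of the opened sites in the genome and 11.4% of all sites. An AP-1 match lay at 5 of the 14 closed adipokine sites (35.7%, 12.8% to 64.9%) and at 1 of the 18 opened ones (5.56%, 0.141% to 27.3%), the Lep site. Over the genome AP-1 matches lay at 31.9% of closed, 7.06% of opened and 22.0% of all sites. For these opened and closed sites the adipokine intervals include the genome-wide share of the same class. Over all 125 sites they do not for AP-1, which matched at 15 (interval 6.87% to 19.0%) against the 22.0% of all sites. Among the 43 sites open in all 4 libraries an AP-1 match lay at 1 (2.33%, 0.0589% to 12.3%), against 15.6% of such sites in the genome, and a C/EBP match at 0 (up to 8.22%), against 9.23%. No DR1 or NFI match was found at the 125 sites, which allows a share of up to 2.91% (upper interval limit), and 0.375% and 1.23% of all sites hold one. EBF matches lay at 4 (1.36% of all sites) and glucocorticoid receptor matches at 3 (6.30%).

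Related genes were counted by the same calls. Of 19 paralogues (adiponectin-related C1q factors, resistin-like, retinol binding and angiopoietin-like genes), 7 had an opened site and 15 a closed one, with 15 opened and 52 closed sites among 170. Opened sites make up 6.0% and closed sites 24.6% of all sites, and 65.7% of protein-coding genes have a closed one. The most opened sites, 3 each, were at C1qtnf5, Rbp7, Angptl2 and Angptl7. C1qtnf1, C1qtnf3 and Angptl1 had 1 each. Retnla, Retnlb and Retnlg had 0 sites in any library, in contrast to Retn. Promoter peaks were listed at 8 paralogues in each D0 library and at 4 in each D8 library, and at C1qtnf6 the promoter held 41 (WT) and 57 tags (HY) at D0 and had no peak at D8.

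Among 12 receptors and targets, Adipor2 (an adiponectin receptor) and Lpl (lipoprotein lipase, the enzyme inhibited by Angptl4) had 7 opened sites each. Cap1, Cmklr1 and Lepr had 1 each, and the other 7 had 0. Among the 118 sites of this list 17 were opened, and 27 were closed, at 9 of the genes. The opened and closed shares to set beside these counts were 6.0% and 24.6% over all sites. They were 14.4% and 11.2% over the adipokine sites. The Lpl promoter held 27 tags at D0 and 53 at D8 in WT cells, and 29 and 53 in HY cells. The promoter of Cmklr1, the chemerin receptor gene, held 28 tags in each D0 library and had no peak at D8. Of 12 other secreted factors, 7 had an opened site, with the most at Vegfa (6), Nrg4 (5), Lcn2 and Igf1 (2 each), followed by Fgf21, Ccl2 and Bmp8b (1 each). Their 150 sites held 18 opened and 22 closed ones, the latter at 9 genes. The Nrg4 promoter, that of a neuregulin secreted by brown and beige fat, had no peak at D0 and held 18 tags at D8 in WT and 17 in HY, and Lcn2 had 24 tags at D8 in both. As at the adipokine genes, 27.9% of protein-coding genes is the share to set beside these counts, which are 19 of 43 genes over the 3 lists.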

How the data were processed

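ATAC-seq data of WT and HY im-scWAT cells at D0 and D8 (1 library each) were analysed from the peak lists that the authors deposited, 1 per library. Per the labels and the methods of the study, reads were trimmed and mapped to mm9, PCR duplicates were removed and peaks were called on each library. Bowtie2, SAMtools, Picard and deepTools are named in the submitters' processing notes. Their versions, the peak threshold and any shift of reads for the transposase are not given in the sources used here. The deposited columns used were the fold enrichment (a ratio), the −log10 p-value, the −log10 q-value and the summit position. The deposited score column was not used. Read totals are not in these lists, so relative depth was taken from the background.

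Pileup and local background were solved from the deposited fold, taken as (pileup + 1)/(background + 1), and the −log10 p-value of a Poisson test, with a whole-number pileup. Every peak was solved within 0.002, and 1 of the adipokine peaks had more than 1 solution (the closest was used). The calculation, the joining of peaks and the ratio intervals were tested on simulated data. A peak's pileup divided by the genome-wide background of its library is the depth-scaled pileup. Ratios compare the strongest peak of each library in a site, and these summits can lie at different positions. A missing peak is not a pileup of 0, because a high local background raises the pileup needed, which was computed from the lowest −log10 p listed and the background of the nearest peak. Shares carry Clopper-Pearson intervals, and ratios exact conditional binomial intervals, at 95%. Genes and places are from GENCODE vM1, which uses the same build. Python 3.11.15, pandas 2.3.3 and scipy 1.17.1 were used.

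For each gene the promoter site, the opened and the closed site with the highest −log10 q in the weaker library, and the site open in all 4 libraries with the largest mean ratio are described, with sites whose genotypes differed on both days. The remaining sites, and the Adipoq promoter sequence, were chosen after their values were seen. The 9 genes, the lists and the motifs were chosen with earlier results of these data known. A gene of the paralogue list is not reported here and was left out of its counts. Alternatives were another joining of peaks, other distances, stricter or equal list lengths, nearest genes only, and other measures of height.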

Additional observations from a re-analysis of the deposited data

Results flagged for a closer look

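The site 8.2 kb downstream of the nearest Lep start site (chr6:29023496-29023687, in a UTR of Lep) was the single adipokine site that closed in WT and opened in HY. It held 6 tags in WT D0 and had no peak in WT D8, and it had no peak in HY D0 and held 8 tags in HY D8. Each genotype was 1 library, so the opposite direction was not tested. A peak there would have needed 7 tags in WT D8 and 5 in HY D0 at the background of the nearest peaks, which is close to the pileups that were listed.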

How the results depend on the processing

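The number of genes with an opened site (8) was 6 to 8 under the 7 other ways of defining sites, and distances of 25 and 100 kb moved no share beyond its counting interval. With lists of the same length the D8-only share was 44.7% in WT and 43.4% in HY, the D0-only share 11.8% and 10.8%, and the HY-only share at D0 11.3%. With 50% coverage as the rule for a shared peak, the D0-only share in WT was 34.9%. When peaks below a −log10 q of 5 were dropped, the HY-only share at D0 was 10.4%, and with sites assigned to the nearest gene only it was 11.4%, with a WT-only share at D0 of 14.3%. With the nearest gene only, the D0-only share in HY was 33.3% (19.6% to 49.5%). That interval includes the 49.3% of all sites, unlike the one given above. Joining summits within 250 bp gave a WT-only share at D0 of 14.4%. All-site shares were not recomputed for 50% coverage, the −log10 q of 5 or the joining within 250 bp. The contrast with all sites was therefore not assessed under these 3 settings. The number of sites at least 2-fold higher at D8 was 4 in WT and 3 in HY by unscaled pileup, and 0 in both by the deposited fold enrichment. The causes of these changes were not tested. No paired analysis was possible because each group had 1 library. Low pileups limit the precision: the interval of a ratio between sites of 10 tags spans several-fold.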
